A study of Mus musculus with 13 samples.

Results

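The core circadian clock of the mouse was followed here through 10 genes in brain RNA: the period genes Per1, Per2 and Per3, the cryptochrome genes Cry1 and Cry2, the activator genes Clock, Arntl and Npas2, and the REV-ERB genes Nr1d1 and Nr1d2. They were taken by gene symbol, each matched 1 row, and they are 10 of 37636 genes in the table. All 10 had a mean of at least 1 FPKM, the level needed for a gene to be tested. FPKM is the number of fragments scaled by gene length and by the mapped fragments of the library. Brain RNA of male Balb/c mice of 6 to 8 weeks was sequenced in 13 libraries. The 6-OHG group held 4 libraries of mice given 6-OHG, a compound known here only by this code and with no dose in the labels, that were kept at 8000 m for 24 h. The Mod group held 5 libraries of mice kept at the same altitude for the same time without 6-OHG. The Con group held 4 libraries of mice in the normal condition, also without 6-OHG. The brain region and the hour at which tissue was taken are not given in the sources used here, and nothing there says that the libraries of a group are separate animals. P-values then measure only the spread between these libraries, which may be technical.

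The circadian clock is a feedback loop of transcription. CLOCK, or NPAS2 in its place, pairs with ARNTL (also called BMAL1), binds E-boxes and drives the period and cryptochrome genes, whose proteins return to the nucleus and repress that pair. A second loop runs through the REV-ERB receptors, which the same pair drives and which repress Arntl. The hour of the day therefore sets the level of most of these transcripts in many tissues, and in the brain they are expressed both in the suprachiasmatic nucleus, the master pacemaker, and in most other regions.

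Some of the sequences through which such factors act lie near gene starts. Promoter windows of 250 bases before an annotated start were read from RefSeq on GRCm38.p6. There were 13 such windows for 9 members, all but Per2. Windows of 3 of the 4 members that rose at altitude are shown 5′ to 3′, with the motif matches in capitals.
Per1 (chr11:69098699-69098948, + strand): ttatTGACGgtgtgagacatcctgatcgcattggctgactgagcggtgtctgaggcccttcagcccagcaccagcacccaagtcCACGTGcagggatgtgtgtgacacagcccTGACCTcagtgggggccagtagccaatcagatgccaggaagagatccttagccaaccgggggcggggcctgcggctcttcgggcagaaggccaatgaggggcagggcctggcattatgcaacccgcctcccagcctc
Cry1 (chr10:85185055-85185304, - strand): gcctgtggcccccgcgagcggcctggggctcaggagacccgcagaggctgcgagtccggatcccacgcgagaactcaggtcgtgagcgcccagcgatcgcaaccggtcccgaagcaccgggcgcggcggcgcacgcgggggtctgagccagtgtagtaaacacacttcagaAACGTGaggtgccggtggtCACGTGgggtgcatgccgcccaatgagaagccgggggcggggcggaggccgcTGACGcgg
Per3 (chr4:151044666-151044915, - strand): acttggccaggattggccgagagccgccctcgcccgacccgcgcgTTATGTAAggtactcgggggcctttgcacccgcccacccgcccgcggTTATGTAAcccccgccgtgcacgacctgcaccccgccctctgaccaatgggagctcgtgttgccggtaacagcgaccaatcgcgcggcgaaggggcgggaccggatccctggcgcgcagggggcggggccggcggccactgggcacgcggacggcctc
The Per1 window shown holds an E-box, CACGTG, 166 bases before the start. It also holds a ROR half-site, AGGTCA read on the other strand, at 137 bases, and a CRE half-site, TGACG, at 246 bases. CRE sites are bound by CREB. The Cry1 window holds an E-box 60 bases, an E-prime box (CACGTT, on the other strand) 79 bases and a CRE half-site 8 bases before the start. The Per3 window holds 2 D-boxes, TTANGTAA, at 205 and 158 bases before the start. D-boxes are bound by the factors that Dbp, Tef, Hlf and Nfil3 encode. Another Per1 window, not shown, holds only a CRE half-site, 132 bases before its start. The window of Nr1d2, which also rose and is not shown, holds only a ROR half-site, at 77 bases.

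Both strands were searched for 7 motifs in 32841 windows of the same length over all genes. The E-box was in 6.02% of them and, among members, in windows of Per1 and Cry1. The E-prime box was in 3.85% of all windows and in windows of Cry1, Cry2 and Nr1d1. The D-box was in 2.06% of all windows and in that of Per3. The ROR half-site was in 14.0% and in windows of Per1, Clock and Nr1d2. The CRE half-site was in 17.8% and in windows of Per1, Cry1 and Cry2. The longer ROR site, NTAGGTCA, which contains the half-site, was in 2.22% of windows, and the full CRE, TGACGTCA, which contains the CRE half-site, in 1.55%. Neither was in a member's window. A match is a run of letters and not a tested binding site. Only these windows were searched, so that a site elsewhere in or around a gene would be missed.

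Sums of FPKM per library ran between 268208 and 312908, of which mitochondrial genes took 20.6% to 28.7%. All 5 markers each of neurons, astrocytes, oligodendrocytes and microglia were at or above 1 FPKM, which is what the brain label calls for. Markers of the striatum, a region below the cortex, differed between libraries of a group. Their 6 genes summed to 324, 35.1, 121 and 299 FPKM in 6-OHG replicates 1 to 4, to 100.1, 265, 377, 375 and 69.5 FPKM in Mod replicates 1 to 5, and to 283, 276, 214 and 151 FPKM in Con replicates 1 to 4. 6-OHG replicate 2, Mod replicate 5 and Con replicate 4 were thus lowest in their groups, and the results are also given without these 3 libraries. They also had the highest sums of 6 cerebellum markers in their groups, at 54.9, 54.2 and 69.2 FPKM. Of these markers Pcp2, Gabra6 and Cbln3 averaged under 1 FPKM, and Calb2 was the highest, at 23.2 FPKM. By the mean log2(FPKM + 1) of the 6, Mod replicate 1 (2.05) stood above Mod replicate 5 (1.90). Cortex markers were lowest of their groups in 6-OHG replicate 2 (41.4 FPKM) and Con replicate 4 (26.0 FPKM), but not in Mod replicate 5 (53.0 FPKM). These libraries thus differed in more than the striatum markers. The 13 hypothalamus markers summed to 10.1 to 46.0 FPKM in 6-OHG, 73.3 to 132 FPKM in Mod and 12.1 to 81.7 FPKM in Con. These 13 were listed for the suprachiasmatic nucleus and the hypothalamus together. Nms, Prok2, Vipr2, Six6 and Lhx1, listed for the nucleus, averaged under 1 FPKM, as did Agrp and Pomc. The other 6 averaged at least 1 FPKM, among them Avp (6.90 FPKM) and Vip (5.54 FPKM), which were also listed for the nucleus. Liver markers summed to 0.186 to 0.572 FPKM in 6-OHG and 27.2 to 40.9 FPKM in Con. In Mod they summed to 25.6 FPKM in replicate 3, near Con, and to 0.106 to 0.690 FPKM in the other replicates.

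The comparison of Mod with Con sets mice at altitude beside mice in the normal condition. That of 6-OHG with Mod sets mice at altitude with and without the compound side by side. Since the hour of tissue collection is not given, a difference in hour between groups cannot be told apart from the altitude or the compound. Of the 10 genes, Per1, Per3, Cry1 and Nr1d2 rose at 8000 m and Clock fell, where 14.0% of all genes tested rose and 9.81% fell. Every Mod library was above every Con library for the 4 that rose, as it was for 13.5% of all genes. With 6-OHG at the same altitude, Per1 rose further over Mod and Clock rose, 2 of 10 genes, where 15.3% of all genes were called, so that this count is near the background. A gene rose, fell or changed here when its adjusted p was under 0.05, from limma on log2(FPKM + 1) with Benjamini-Hochberg adjustment over the 13905 genes tested. Changes are differences between group means on this scale, which understates the fold of low genes. In brain tissue, fewer cells of a type and less RNA per cell cannot be told apart.

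**Figure D1:**
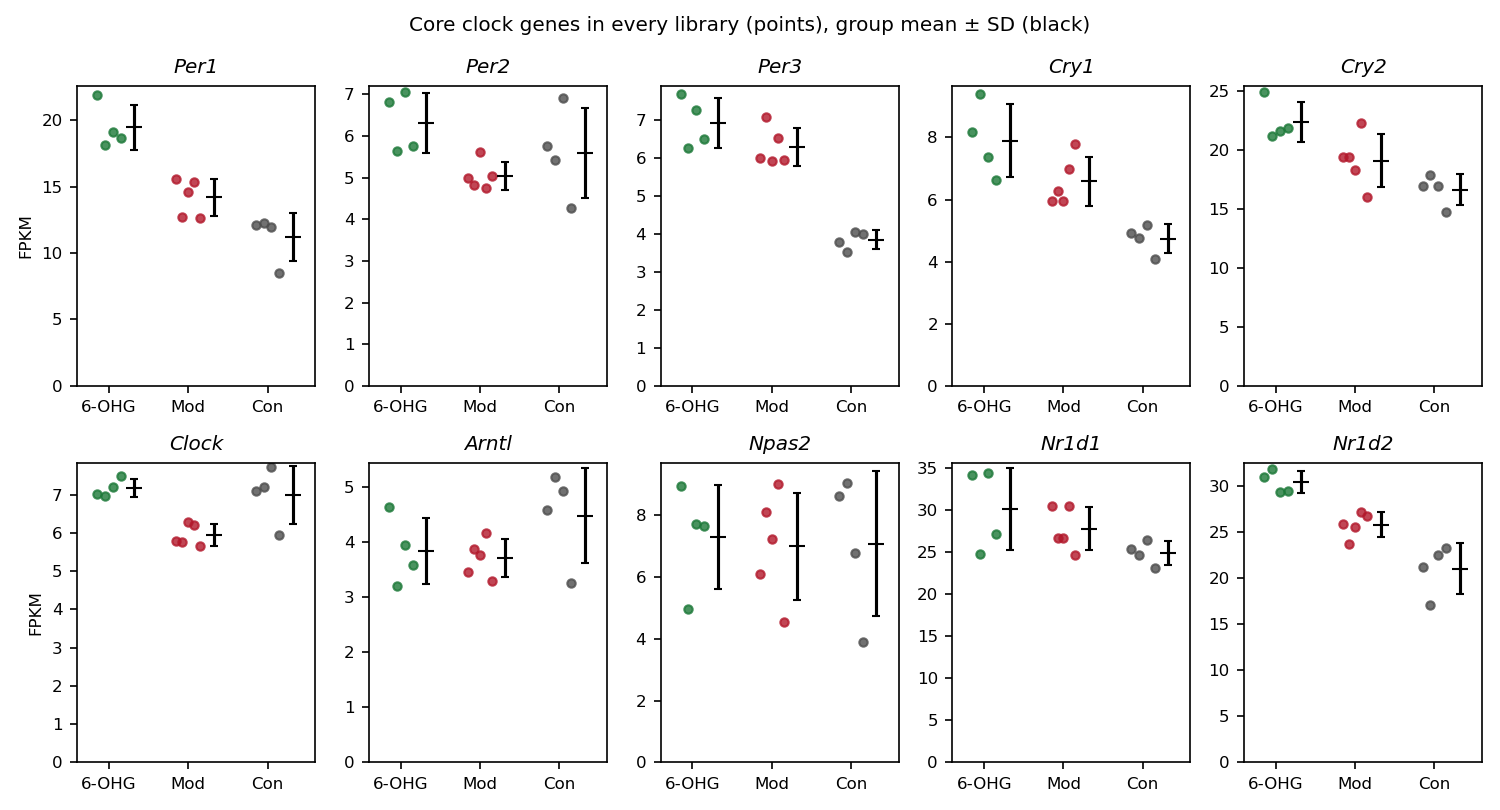
FPKM of the 10 core clock genes in every library of 6-OHG, Mod and Con (points), with the group mean ± SD beside them in black; each panel has its own axis from 0. The Per3 panel shows all 6-OHG and Mod libraries above 5.9 FPKM and all Con libraries under 4.1 FPKM, while Npas2 spreads widely in every group.

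Per1 encodes a repressor that is also known as an early response gene, switched on by light, glucocorticoids and CREB. It had 21.9, 18.1, 19.1 and 18.7 FPKM in 6-OHG, 15.6, 12.7, 14.6, 15.4 and 12.7 FPKM in Mod, and 12.1, 12.2, 12.0 and 8.53 FPKM in Con. The 3 groups did not overlap, with 6-OHG highest and Con lowest. Group means were 19.5 ± 1.68 FPKM in 6-OHG, 14.2 ± 1.40 FPKM in Mod and 11.2 ± 1.79 FPKM in Con (SD, n = 4, 5 and 4). Per1 was 26.5% higher in Mod than in Con (log2 change 0.32, SE 0.10, adjusted p = 0.0388) and 37.2% higher in 6-OHG than in Mod (log2 change 0.43, SE 0.10, adjusted p = 0.0153). Against Con, Per1 was 73.6% higher in 6-OHG (log2 change 0.75, SE 0.11, adjusted p = 0.000375). The lowest library, Con replicate 4, bears on the first of these. Without it the change of Mod against Con was 0.21 with adjusted p = 0.0813. The adjusted p of that change was also above 0.05 without Con replicate 3 (0.0541) and without Mod replicates 1 (0.0849), 3 (0.0737) or 4 (0.0834), and it ranged between 0.0163 and 0.187 over all 28 other settings.

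Per3, the period gene with a weaker repressor role, showed the clearest difference between altitude and the normal condition. Per3 had 7.68, 6.25, 7.25 and 6.48 FPKM in 6-OHG, 6.00, 7.06, 5.91, 6.52 and 5.94 FPKM in Mod, and 3.79, 3.52, 4.06 and 4.01 FPKM in Con. The 9 libraries from 8000 m lay apart from the 4 Con libraries, while 6-OHG and Mod overlapped. The change was 0.59 in Mod against Con (SE 0.07, adjusted p = 0.000105), a ratio of means of 1.64, and 0.71 in 6-OHG against Con (SE 0.07, adjusted p = 5.24e-05), a ratio of 1.80. Between 6-OHG and Mod it was 0.12 (95% interval -0.03 to 0.27, adjusted p = 0.277). Both calls against Con held in all 28 other settings.

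Per2, the period gene whose mutation alone can abolish the rhythm of mice, passed in no comparison. Per2 had 6.82, 5.65, 7.06 and 5.75 FPKM in 6-OHG, 5.00, 4.83, 5.61, 4.74 and 5.05 FPKM in Mod, and 5.76, 5.44, 6.91 and 4.28 FPKM in Con. Con spanned the whole Mod range, and the lowest 6-OHG library stood just above the highest Mod library. The change was -0.11 in Mod against Con (95% interval -0.33 to 0.11, adjusted p = 0.464), 0.27 in 6-OHG against Mod (0.05 to 0.49, adjusted p = 0.0911) and 0.16 in 6-OHG against Con (adjusted p = 0.283). Without Con replicate 4, which enters that comparison only through the shared estimate of the spread, 6-OHG against Mod had adjusted p = 0.0382 for Per2.

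The balance of the period transcripts was also taken within each library. The ratio of Per1 to Per2 averaged 3.09 ± 0.261 in 6-OHG (range 2.70 to 3.25), 2.82 ± 0.332 in Mod (2.51 to 3.24) and 2.02 ± 0.221 in Con (1.73 to 2.25). For Per3 to Per2 the ratio averaged 1.10 ± 0.048 in 6-OHG (1.03 to 1.13), 1.25 ± 0.163 in Mod (1.05 to 1.46) and 0.707 ± 0.156 in Con (0.587 to 0.936). Per3 thus exceeded Per2 in all 9 altitude libraries and was under it in all 4 Con libraries. These ratios were formed within a library, so its scaling drops out, and they were not tested.

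Cry1 and Cry2 encode the cryptochromes, the stronger repressors of CLOCK and ARNTL. Cry1 had 8.18, 9.39, 7.36 and 6.64 FPKM in 6-OHG, 5.95, 6.26, 5.94, 6.97 and 7.79 FPKM in Mod, and 4.91, 4.78, 5.18 and 4.09 FPKM in Con. All altitude libraries were above all Con libraries, and 6-OHG overlapped Mod. Cry1 rose by 0.40 in Mod over Con (SE 0.10, adjusted p = 0.0112) and by 0.63 in 6-OHG over Con (SE 0.10, adjusted p = 0.000854), with means 38.8% and 66.5% above Con. The change of 6-OHG against Mod was 0.23 (95% interval 0.01 to 0.44, adjusted p = 0.138).

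Cry2 stood at a higher level than its paralog throughout. It had 24.9, 21.1, 21.6 and 21.9 FPKM in 6-OHG, 19.4, 19.4, 18.3, 22.3 and 16.0 FPKM in Mod, and 16.9, 17.9, 17.0 and 14.8 FPKM in Con. All 6-OHG libraries and all Mod libraries but replicate 5 were above Con. Cry2 rose by 0.41 in 6-OHG over Con (SE 0.09, adjusted p = 0.00503), a ratio of means of 1.35. It did not pass the test in Mod against Con (0.18, adjusted p = 0.142) or in 6-OHG against Mod (0.22, adjusted p = 0.0969). Without Mod replicate 5 the first of these was 0.24 with adjusted p = 0.0452, and without Mod replicate 4 the second was 0.28 with adjusted p = 0.0358. The ratio of Cry1 to Cry2 was 0.304 to 0.444 in 6-OHG, 0.307 to 0.487 in Mod and 0.267 to 0.306 in Con, so that the altitude libraries and Con barely met. The highest ratios were those of 6-OHG replicate 2 and Mod replicate 5, both low in striatum markers. The other libraries reached 0.341 in 6-OHG and 0.324 in Mod, close to Con.

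The REV-ERB receptors are nuclear receptors that bind heme and repress Arntl, among many targets. Nr1d2, which encodes REV-ERB beta, had 31.0, 31.8, 29.3 and 29.5 FPKM in 6-OHG, 25.8, 23.7, 25.5, 27.1 and 26.7 FPKM in Mod, and 21.2, 17.1, 22.5 and 23.2 FPKM in Con. The 3 groups did not overlap and stood in the same order as for Per1. Nr1d2 rose by 0.29 in Mod over Con (SE 0.08, adjusted p = 0.0176) and by 0.52 in 6-OHG over Con (SE 0.08, adjusted p = 0.000663), a ratio of means of 1.45. In 6-OHG against Mod the change was 0.23 (95% interval 0.06 to 0.40, adjusted p = 0.0661), and it had adjusted p = 0.0159 without Con replicate 2, the lowest Con library. With FPKM rescaled to equal sums the change of Mod against Con was 0.22 with adjusted p = 0.108, and that of 6-OHG against Mod 0.33 with adjusted p = 0.035.

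Nr1d1, which encodes REV-ERB alpha, had 34.2, 24.8, 34.4 and 27.1 FPKM in 6-OHG, 30.4, 26.7, 26.7, 30.4 and 24.6 FPKM in Mod, and 25.3, 24.6, 26.4 and 23.1 FPKM in Con. Its groups overlapped, and 6-OHG replicates 1 and 3 lay above all other libraries. It passed in no comparison: the change was 0.15 in Mod against Con (95% interval -0.06 to 0.36, adjusted p = 0.301), 0.10 in 6-OHG against Mod (adjusted p = 0.521) and 0.25 in 6-OHG against Con (0.03 to 0.48, adjusted p = 0.0813). Without 6-OHG replicate 2 the last of these was 0.34 with adjusted p = 0.0196. Of the exon bases of Nr1d1, 263 (8.5%) are shared with Thra, the thyroid hormone receptor gene on the opposite strand. Thra had 94.8 ± 5.83 FPKM in 6-OHG, 103 ± 8.15 FPKM in Mod and 98.0 ± 8.13 FPKM in Con. Whether counting used strand is not given in the sources used here, so reads of the shared bases cannot be assigned. Cry2 likewise shares 295 exon bases (4.7%) with D930015M05Rik on the opposite strand, which averaged 1.57 FPKM.

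The activator genes are Clock, Arntl and Npas2. Clock encodes the partner of ARNTL in most tissues. It had 7.03, 6.98, 7.20 and 7.50 FPKM in 6-OHG, 5.78, 5.77, 6.29, 6.22 and 5.67 FPKM in Mod, and 7.10, 7.20, 7.72 and 5.94 FPKM in Con. Mod was low, 6-OHG and 3 Con libraries lay together, and Con replicate 4 fell within Mod. Clock fell by 0.20 in Mod against Con (SE 0.06, adjusted p = 0.0398) and rose by 0.24 in 6-OHG over Mod (SE 0.06, adjusted p = 0.0267). Between 6-OHG and Con the change was 0.04 (95% interval -0.11 to 0.18, adjusted p = 0.705).

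Both Clock calls stood near the threshold. Mod against Con lost its call in 13 of 28 other settings, with adjusted p between 0.00419 and 0.248. Among these were Con replicates 1, 2 and 3 left out (adjusted p = 0.0922, 0.0951 and 0.129), Mod replicates 1, 2 and 5 (0.078, 0.0787 and 0.079) and 6-OHG replicate 3 (0.0504). The last of these libraries enters that comparison only through the shared estimate of the spread. The call of 6-OHG against Mod was lost in 9, including without Mod replicates 1, 2 and 5 (adjusted p = 0.0569, 0.0581 and 0.0573) and without 6-OHG replicates 3 and 4 (0.0573 and 0.0751). Clock has 13727 exon bases, the most of the 10 genes. With the trend of each library over exon length and GC content removed, its change was -0.12 in Mod against Con (adjusted p = 0.11) and 0.03 in 6-OHG against Mod (adjusted p = 0.767).

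Arntl, the obligate partner in the pair, had the lowest mean of the 10 genes over all libraries. It had 4.63, 3.21, 3.94 and 3.58 FPKM in 6-OHG, 3.46, 3.88, 3.76, 4.17 and 3.30 FPKM in Mod, and 4.58, 5.18, 4.93 and 3.25 FPKM in Con. Con replicates 1 to 3 were above every Mod library, and Con replicate 4 was below every one. The change was -0.21 in Mod against Con (95% interval -0.45 to 0.04, adjusted p = 0.205), -0.17 in 6-OHG against Con (adjusted p = 0.287) and 0.03 in 6-OHG against Mod (adjusted p = 0.877). Without Con replicate 4 the changes were -0.32 in Mod against Con (adjusted p = 0.0244) and -0.29 in 6-OHG against Con (adjusted p = 0.0414). In Mod against Con the adjusted p stayed above 0.05 in 23 of 27 other settings, and was up to 0.483. For 6-OHG against Con it did so in 26 of 27, and was up to 0.539.

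Npas2, the forebrain counterpart of Clock, varied most among libraries of a group. Npas2 had 8.93, 4.94, 7.69 and 7.62 FPKM in 6-OHG, 6.09, 8.08, 7.21, 9.00 and 4.55 FPKM in Mod, and 8.60, 9.04, 6.75 and 3.88 FPKM in Con. The lowest library of each group was 6-OHG replicate 2, Mod replicate 5 and Con replicate 4, the 3 with the lowest striatum markers. Its coefficient of variation was 23.0% in 6-OHG, 24.8% in Mod and 33.2% in Con, against 3.3%, 4.8% and 10.7% for Clock. The changes were 0.01 in Mod against Con (95% interval -0.48 to 0.50, adjusted p = 0.982), 0.06 in 6-OHG against Mod (adjusted p = 0.889) and 0.07 in 6-OHG against Con (adjusted p = 0.853).

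**Figure D2:**
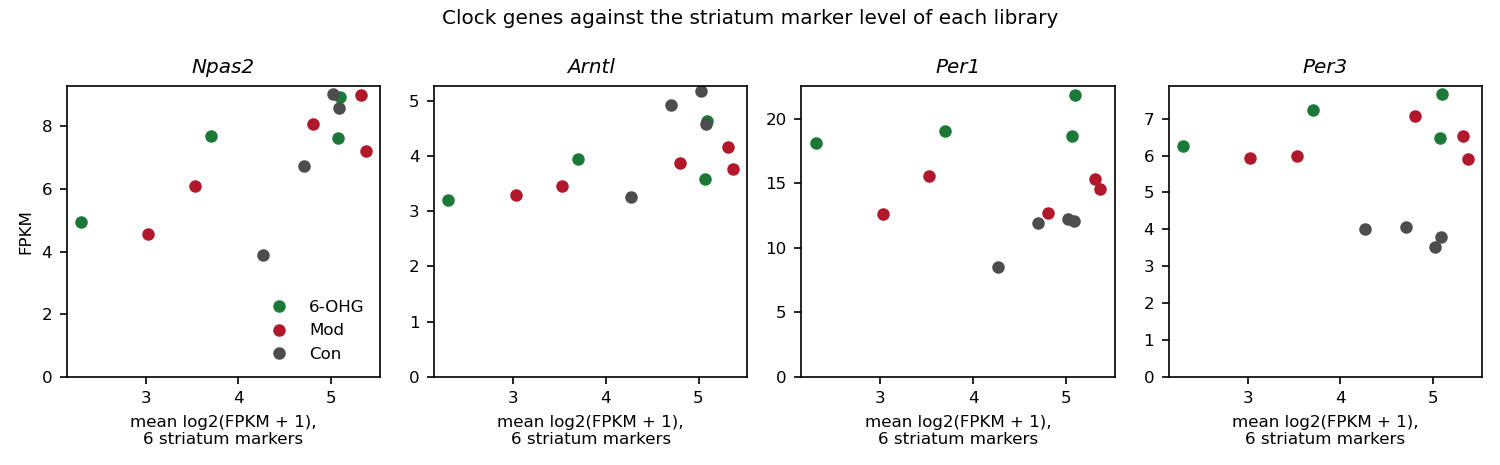
FPKM of Npas2, Arntl, Per1 and Per3 (vertical axes from 0) against the mean log2(FPKM + 1) of 6 striatum markers in each library, with 6-OHG, Mod and Con in 3 colours. The libraries with the lowest marker level in their group have the lowest Npas2 of their group, while Per3 separates the altitude libraries and Con over the whole range of the markers.

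The same 3 libraries stood low for other members. Con replicate 4 was the lowest Con library for 8 of the 10 genes, 6-OHG replicate 2 the lowest of its group for 8, and Mod replicate 5 the lowest of its group for 6. Cry1 went the other way in 6-OHG replicate 2 and Mod replicate 5, where it was highest of its group, and so did Nr1d2 in 6-OHG replicate 2 and Con replicate 4. Of the 6 striatum markers 0 passed the test in any comparison by limma, and 0 had an unadjusted p under 0.05, with log2 medians of -0.42 in Mod against Con, -0.42 in 6-OHG against Mod and -0.69 in 6-OHG against Con. With their mean as a term of the model, 5 members rose and 1 fell in Mod against Con, 3 rose in 6-OHG against Mod and 6 rose in 6-OHG against Con. In that fit 3864, 2857 and 4944 of all genes were called in these comparisons, against 3304, 2131 and 4268 without the term. Without the 3 libraries, 4 members rose and 2 fell in Mod against Con, 3 rose in 6-OHG against Mod and 6 rose in 6-OHG against Con, with 3753, 2359 and 4214 of all genes called.

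**Figure D3:**
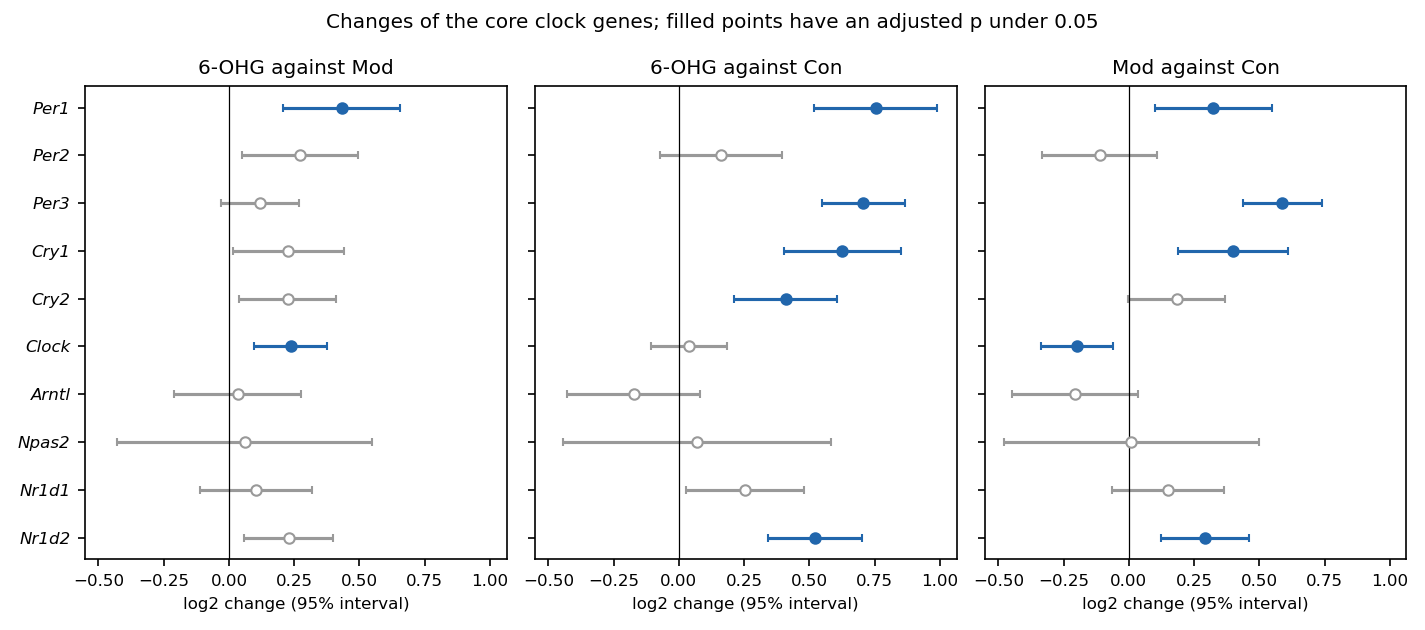
Log2 changes of the 10 core clock genes with 95% intervals (horizontal axis) in 6-OHG against Mod, 6-OHG against Con and Mod against Con; filled points have an adjusted p under 0.05. All 10 points of 6-OHG against Mod lie right of 0, with Per1 and Clock filled, and Per1, Per3, Cry1, Cry2 and Nr1d2 are filled in 6-OHG against Con.

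Counted over the 10 genes, 4 rose and 1 fell in Mod against Con, where 23.8% of all genes tested were called, 14.0% higher and 9.81% lower. The groups lay wholly apart for 4 members, all higher in Mod, against 22.4% of all genes, 13.5% in the higher and 8.87% in the lower direction. In 6-OHG against Mod 2 rose and 0 fell, where 15.3% of all genes were called, 6.98% higher and 8.35% lower. The groups of that comparison lay apart for Per1, Per2, Clock and Nr1d2, 4 of 10, against 15.9% of all genes, 7.6% in the higher and 8.34% in the lower direction. In 6-OHG against Con 5 rose and 0 fell, where 30.7% of all genes were called, 16.3% higher and 14.4% lower, and the groups lay apart for the same 5, against 28.1% of all genes, 15.6% in the higher and 12.5% in the lower direction. The comparisons share libraries pairwise and are not independent of each other.

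The sign of a change was shared more widely than the calls. It was positive for 7 of the 10 in Mod against Con, for 10 in 6-OHG against Mod and for 9 in 6-OHG against Con, where 52.4%, 45.9% and 50.6% of all genes were positive. The median change of the members was 0.17 in Mod against Con, 0.23 in 6-OHG against Mod and 0.33 in 6-OHG against Con, beside 0.01, -0.02 and 0.00 for all genes. With FPKM rescaled to equal sums the median in Mod against Con was 0.098, beside -0.046 for all genes, with 6 of the 10 positive. Without the 3 libraries named above 7 of the 10 were positive in 6-OHG against Con. Scaling moves the split of calls over all genes: in Mod against Con 58.7% of calls were higher, but 40.6% with FPKM rescaled to equal sums. For 6-OHG against Mod the shares were 45.5% and, rescaled, 77.7%. With that rescaling, Cry1 and Per3 alone of the members passed in Mod against Con, and Per1, Clock and Nr1d2 rose in 6-OHG against Mod. The 5 genes called in 6-OHG against Con kept their call in all 28 other settings. Endothelial markers moved with the altitude calls: 4 of 5 rose and 1 fell in each altitude group against Con, and their sums were 37.3 to 48.8 FPKM in 6-OHG, 44.5 to 49.7 FPKM in Mod and 25.5 to 33.1 FPKM in Con. In both of these comparisons 4 of 4 liver markers tested and 2 of 5 astrocyte markers fell. Of 5 microglia markers 1 fell in Mod against Con and 3 fell in 6-OHG against Con, where 1 of 5 erythroid and 1 of 5 oligodendrocyte markers also fell. Of 6 hypothalamus markers tested, 3 rose in Mod over Con and 3 fell in 6-OHG against Mod. The part of any of these in the clock gene results was not tested.

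**Figure D4:**
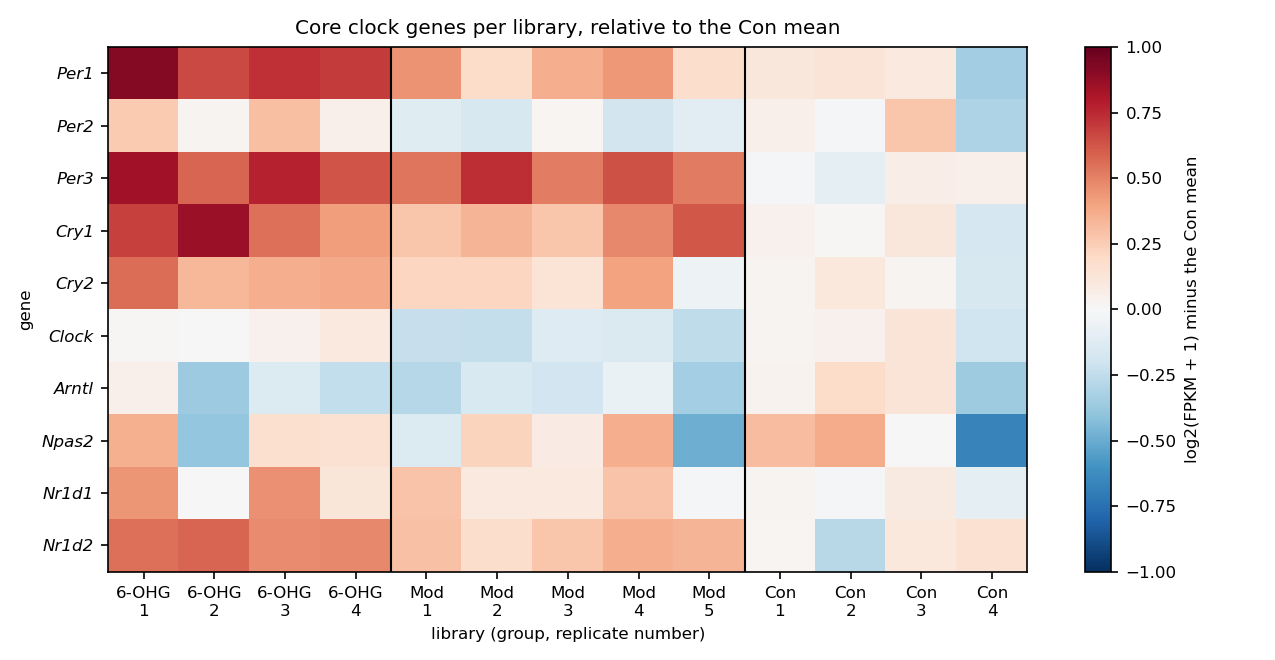
Log2(FPKM + 1) of each core clock gene minus its Con mean (colour, red higher and blue lower) in every library of 6-OHG, Mod and Con from left to right, with lines between groups. The rows of Per1, Per3, Cry1 and Nr1d2 are red in all 6-OHG and Mod libraries, and Con replicate 4, 6-OHG replicate 2 and Mod replicate 5 are the bluest of their groups for Npas2.

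Since FPKM is scaled by length, levels can be set beside each other. The place of Nr1d1 is less sure, because reads of the exon bases it shares with Thra cannot be assigned. Over the 13 libraries Nr1d1 averaged 27.6 FPKM, Nr1d2 25.7, Cry2 19.3 and Per1 14.9 FPKM. The other 6 genes were lower, with Npas2 at 7.11, Clock at 6.65, Cry1 at 6.42, Per3 at 5.73, Per2 at 5.61 and Arntl at 3.99 FPKM. Neighbours in this order overlapped in range over all libraries. Within groups the gap below Per1 was clear in 6-OHG, where the lowest Per1 library had 18.1 FPKM and the highest Cry1 library 9.39 FPKM. In Mod the lowest Per1 library had 12.7 FPKM and the highest Npas2 library 9.00 FPKM, whereas in Con Per1 and Npas2 overlapped. The order among the lower 6 differed between groups: Cry1 led them in 6-OHG, Npas2 in Mod and Con, and Per3 was last in Con, behind Arntl. Most of those neighbours overlapped.

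Beyond the 10 core genes, 38 other clock pathway genes were read from the same fit, and 36 of them had at least 1 FPKM. The other 2 were not tested. In Mod against Con 10 rose and 2 fell, with a median change of 0.06. In 6-OHG against Mod 7 rose and 2 fell, with a median of 0.10. In 6-OHG against Con 16 rose and 2 fell, with a median of 0.23. These are 33.3%, 25% and 50% of the 36, beside the shares of all genes called that are given above.

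The output factors carry the rhythm to other genes, and of 7 tested 4 rose and 1 fell in Mod against Con, beside 14.0% and 9.81% of all genes. Ciart, which encodes a circadian repressor also called CHRONO, had 7.94 ± 1.18 FPKM in 6-OHG, 7.17 ± 0.656 FPKM in Mod and 3.60 ± 0.878 FPKM in Con (SD, n = 4, 5 and 4). It rose by 0.84 in Mod over Con (adjusted p = 0.000421) and by 0.97 in 6-OHG over Con (adjusted p = 0.000203), and neither altitude group overlapped Con. Tef, a D-box activator, had 64.3 ± 6.48 FPKM in 6-OHG, 60.1 ± 5.15 FPKM in Mod and 41.6 ± 3.90 FPKM in Con. It rose by 0.52 in Mod over Con (adjusted p = 0.00107) and by 0.61 in 6-OHG over Con (adjusted p = 0.000397). Nfil3 encodes the repressor that competes for D-boxes and moved the other way, with 2.98 ± 0.437 FPKM in 6-OHG, 2.87 ± 0.325 FPKM in Mod and 4.09 ± 0.492 FPKM in Con. It fell by 0.39 in Mod against Con (adjusted p = 0.00934). Dbp, the D-box activator with the widest daily swing in many tissues, had 15.8 ± 2.79 FPKM in 6-OHG, 19.7 ± 0.722 FPKM in Mod and 14.8 ± 1.36 FPKM in Con. It rose by 0.39 in Mod over Con (adjusted p = 0.0112) and fell by 0.32 in 6-OHG against Mod (adjusted p = 0.0435), where the groups overlapped. That last call was lost in 20 of 28 other settings.

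Among partners, Timeless and Tipin, which act together at replication forks, rose in Mod over Con. Timeless had 1.79 ± 0.367 FPKM in 6-OHG, 1.90 ± 0.146 FPKM in Mod and 0.922 ± 0.176 FPKM in Con, a low level. It rose by 0.59 in Mod over Con (adjusted p = 0.000765) and by 0.53 in 6-OHG over Con (adjusted p = 0.00161). Tipin rose by 0.44 in Mod over Con (adjusted p = 0.00915), with 7.64 ± 0.438 FPKM in Mod and 5.42 ± 0.916 FPKM in Con. Rora encodes a receptor that competes with the REV-ERBs and activates Arntl. It had 8.64 ± 0.658 FPKM in 6-OHG, 5.89 ± 1.11 FPKM in Mod and 5.53 ± 0.845 FPKM in Con, and rose by 0.50 in 6-OHG over Mod (adjusted p = 0.0136) and by 0.57 in 6-OHG over Con (adjusted p = 0.00419).

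Kinases that act on clock proteins are encoded by 7 of the genes. Against Con 0 of the 7 passed in either altitude group by limma, and 2 had an unadjusted p under 0.05 in each comparison. Over all genes the called share was 23.8% for Mod against Con, and 30.7% for 6-OHG against Con. Gsk3b alone rose in 6-OHG over Mod, by 0.30 (adjusted p = 0.0102), with 21.1 ± 1.59 FPKM in 6-OHG and 16.9 ± 1.20 FPKM in Mod. Btrc encodes the ligase subunit for the period proteins and had 3.65 ± 0.23 FPKM in 6-OHG, 2.82 ± 0.246 FPKM in Mod and 3.63 ± 0.162 FPKM in Con. It fell by 0.28 in Mod against Con (adjusted p = 0.0057) and rose by 0.29 in 6-OHG over Mod (adjusted p = 0.0087), so that it was lowest in Mod, as Clock was.

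Of 9 cofactor genes, 3 rose and 1 fell in 6-OHG against Mod, beside 6.98% and 8.35% of all genes. Ep300, a histone acetyltransferase, rose by 0.33 (adjusted p = 0.00182), Ncor1, the corepressor that REV-ERBs recruit, by 0.42 (adjusted p = 0.00363) and Kdm5a, a histone demethylase that binds CLOCK and ARNTL, by 0.33 (adjusted p = 0.00431). Hdac3, the deacetylase that works with NCOR1, fell by 0.22 (adjusted p = 0.0185), with 17.8 ± 0.654 FPKM in 6-OHG and 20.9 ± 0.949 FPKM in Mod. In 6-OHG against Con 6 of the 9 rose and 1 fell, beside 16.3% and 14.4% of all genes. Among those that rose were Kdm5a by 0.53 (adjusted p = 0.000116) and Nampt, the enzyme that makes the NAD+ precursor, by 0.44 (adjusted p = 0.00211). Sirt1, the NAD+ dependent deacetylase, also rose, by 0.33 (adjusted p = 0.00401). Crebbp, a histone acetyltransferase that CREB recruits, rose by 0.27 in Mod over Con (adjusted p = 0.00416), and had adjusted p = 0.0648 with FPKM rescaled to equal sums. With the length and GC trend removed, Btrc (0.06, adjusted p = 0.604), Gsk3b (0.15, adjusted p = 0.165), Rora (0.30, adjusted p = 0.173) and Kdm5a (0.12, adjusted p = 0.276) did not pass in 6-OHG against Mod. Ep300, Ncor1 and Hdac3 still passed there. With FPKM rescaled to equal sums, however, the change of Hdac3 was -0.12 (adjusted p = 0.287), and without 6-OHG replicate 4 it had adjusted p = 0.0567.

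**Figure D5:**
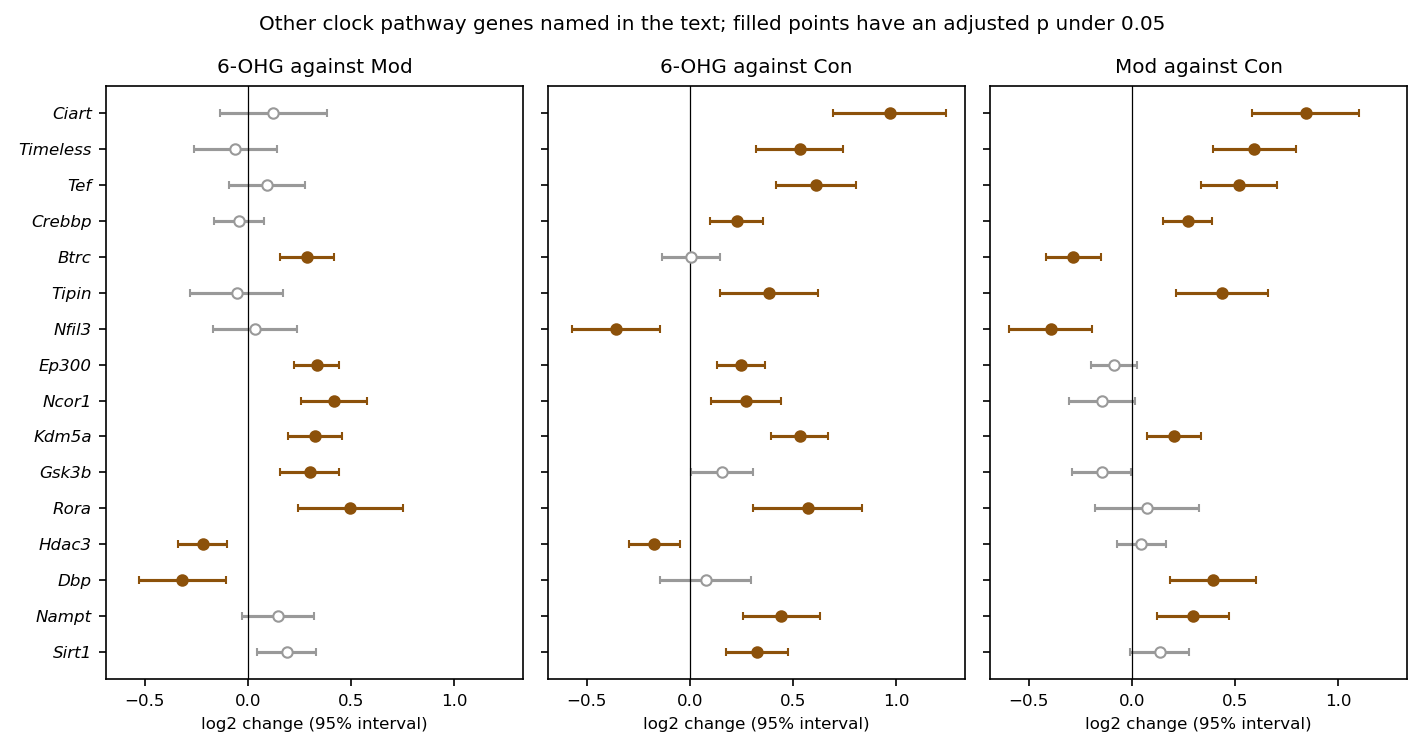
Log2 changes with 95% intervals (horizontal axis) of other clock pathway genes named in the text, in 6-OHG against Mod, 6-OHG against Con and Mod against Con; filled points have an adjusted p under 0.05. Ciart, Timeless and Tef are filled right of 0 in both comparisons against Con, and Btrc is filled left of 0 in Mod against Con and right of 0 in 6-OHG against Mod.

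For each member the genes with the most similar profile over the 13 libraries were found among 12024 genes, by the root mean square difference of the standardised profiles, where 0 is identity. For Per1 they were Kat6b (0.269), Tatdn2 (0.315) and Ino80 (0.326), and for Per3 Mthfd1l (0.238), Ncapd3 (0.251) and Bcl6b (0.262). Those of Cry1 were Dnajc25 (0.274), Aph1c (0.308) and Nt5c3 (0.32), those of Cry2 Ubr7 (0.302), Rapgef2 (0.337) and Slc6a6 (0.345), and those of Nr1d2 Utp15 (0.281), Trim23 (0.291) and Galnt16 (0.3). Clock lay nearest to Ascc3 (0.293), Sptbn1 (0.318) and Gramd1b (0.334), and Arntl to R3hdm1 (0.3), Synpo (0.336) and Inka2 (0.342). Npas2 lay nearest to Rin1 (0.239), Agap2 (0.24) and Cplx2 (0.249). Per2, with Btaf1 (0.464), Prdm2 (0.55) and Rab22a (0.559), and Nr1d1, with Diaph1 (0.435), Sntb2 (0.457) and Trak1 (0.479), had no profile as near as the other 8 members. No member was among the nearest 3 genes of another.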

How the data were processed

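Brain RNA was sequenced in 13 libraries of 6-OHG, Mod and Con, read as pairs of 150 bases per the labels. The deposited values are FPKM made by the authors, 1 column for each library. The submitters' processing notes name HISAT2 2.2.1 and StringTie 2.1.6, beside featureCounts 1.5.0-p3, edgeR, DESeq2, cutadapt 1.9 and FastQC, without their roles, and the build GRCm38 (mm10). Which of them made the FPKM values, the annotation release and the strand setting are not given in the sources used here. Counts could not be recovered, so depth is unknown and counting errors are not stated.

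Gene IDs were matched to GENCODE M21 (37499 of 37636 rows). On log2(FPKM + 1), limma 3.58.1 under R 4.3.3 fitted a mean for each group to the 13905 genes averaging 1 FPKM or more, moderating variances along the mean level. Benjamini-Hochberg adjustment covered all these genes, and calls were made under 0.05. The fit was tested on simulated data, with 50 genes changed for each size and direction. It recovered 62% to 74% of log2 changes of 0.5 and 84% to 98% of those of 1, with 10 to 16 false calls. Smaller changes, such as many of those above that did not pass, were not simulated. Of 28 other settings, 26 were planned, among them each library left out in turn. A further 2 were added after the data were seen: the striatum marker mean as a term, and the 3 libraries lowest in these markers left out. The members, the pathway list and the markers were chosen with earlier results of these data known. Beyond the members, the text names up to 8 pathway genes of each comparison, those called with the smallest p, and the 3 nearest profiles of each member. Some genes under that rule are not reported here. Thra and D930015M05Rik are named for their overlap, and Dbp in Mod against Con after its values were seen. Figures were drawn with matplotlib 3.10.9.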

Additional observations from a re-analysis of the deposited data

Results flagged for a closer look

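Each of the 10 core genes and the other pathway genes named was checked in each group, 81 sets of 4 or 5 values. In these, 8 values lay farther from the rest of their set than Dixon's 95% critical value allows, where chance flags about 1 in 20 sets. Some libraries hold more than 1 of these values. Per1 had 8.53 FPKM in Con replicate 4, against 12.0 to 12.2 FPKM in the other Con libraries. Dbp had 12.8 FPKM in Con replicate 2, against 15.3 to 15.8 FPKM in the other Con libraries. Gsk3b had 20.3 FPKM in Con replicate 3, against 18.1 to 18.4 FPKM in the others of Con. Ncor1 had 16.0 FPKM in 6-OHG replicate 2, against 18.4 to 18.7 FPKM in the others of 6-OHG, and 12.5 FPKM in Con replicate 4, against 15.4 to 15.5 FPKM in the others of Con. Rora had 9.62 FPKM in 6-OHG replicate 1, against 8.23 to 8.44 FPKM in the others of 6-OHG, and 4.27 FPKM in Con replicate 1, against 5.81 to 6.09 FPKM in the others of Con. Tipin had 9.22 FPKM in 6-OHG replicate 2, against 6.51 to 6.97 FPKM in the others of 6-OHG.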

How the results depend on the processing

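Of 1500 log2 changes of named genes recomputed, 1364 kept direction and side of the threshold. The calls of Per3 in Mod against Con and of all 5 core genes in 6-OHG against Con held throughout. Replicate numbers did not pair the libraries: same-numbered libraries correlated at r = -0.483 to 0.346 in 12 pairs, with 3 over 0.1. The cause of the changes below was not tested.

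In Mod against Con the 3304 genes called became 2039 with a replicate block, 2086 with the block and the length and GC trend removed, and 2382 to 3653 without single libraries. With a filter at 5 FPKM they became 2061, but only 7648 genes were tested there. The called share was 26.9%, beside 23.8% in the main fit. The 5 core genes became 3 with no filter, 2 rescaled, 3 with only the compared groups, 1 with the block (Per3), 3 with block and trend, and 3 to 5 without single libraries. The 12 other pathway genes became 7 at 5 FPKM and 7 rescaled. Of those 12, Nfil3, Timeless, Btrc, Crebbp and Kdm5a averaged under 5 FPKM and were not tested with that filter. In 6-OHG against Mod the 2131 genes became 846 with the block, 1012 with the trend removed, 26 with both and 1357 to 2345 without single libraries (1357 without 6-OHG replicate 4, and 2359 without the 3 libraries lowest in striatum markers). The 2 core genes became 1 with no filter, 4 with quantile normalization, sample weights or only the compared groups, 0 with the block, 1 with the trend removed, 0 with both, and 1 to 3 without single libraries. The 9 other genes became 3 with the block, 4 with the trend removed and 0 with both. In 6-OHG against Con the 4268 genes became 2663 at 5 FPKM, or 34.8% of the 7648 genes tested there, beside 30.7% in the main fit. The 18 other genes became 11 at 5 FPKM and 10 with block and trend. Of those 18, Nfil3, Arntl2, Timeless, Kdm5a, Crebbp, Sirt1 and Creb1 averaged under 5 FPKM and were not tested with that filter.

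Changes near 0 turned sign. Npas2 in Mod against Con (0.01) became -0.055 rescaled, -0.012 with median-of-ratios factors, -0.0074 with quantile normalization, -0.12 with weights, -0.21 without Con replicate 4 and 6-OHG replicate 2, -0.09 without these and Mod replicate 5, and -0.21 to 0.13 without single libraries. Npas2 in 6-OHG against Mod (0.06) became -0.064 with the block, -0.070 with block and trend, and -0.064 to 0.21 without single libraries. Npas2 in 6-OHG against Con (0.07) became -0.0034 with weights, -0.0016 without these 2 or 3 libraries, and -0.15 to 0.22 without single ones. Arntl in 6-OHG against Mod (0.03) became -0.079 with the trend removed, -0.11 with both, and -0.042 to 0.10 without single libraries. Clock in 6-OHG against Con (0.04) became -0.092 with the trend removed, alone or with the block, -0.016 without these 2 or 3 libraries, and -0.028 to 0.082 without single ones.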
